A study of Danio rerio with 4 samples.

Results

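Transcript levels in whole zebrafish embryos (Danio rerio) after knockdown of eif3ha were compared with those of wild-type embryos at about 24 hours post fertilization (hpf). The comparison covers every gene that reached 3 RPKM in the eif3ha morphant or the wild-type total mRNA library, which was 12154 of 32313 genes (37.6%). RPKM counts reads for each kilobase of a gene model and each unit of library depth. Morphants carry an injected morpholino, which is an antisense oligonucleotide that blocks splicing or translation of its target. Total RNA came from pools of 50 embryos, polyA mRNA was sequenced as single reads of 36 bases on an Illumina Genome Analyzer IIx, and each group has 1 library. No difference below therefore has a replicate check, and none can be tested between the groups. The labels name neither a strain nor embryos given a control morpholino, and injection itself, off-target effects of the morpholino and the loss of eIF3h cannot be told apart. A pair of polysomal libraries of the same conditions, from 300 embryos a pool, is used only to set the same genes beside a separate pair of samples.

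eIF3h is a subunit of eIF3, the complex that recruits the small ribosomal subunit to mRNA when translation starts, and eif3ha is one of the zebrafish copies of its gene. The transcription factor p53 is held at a low level by mdm2 and its relative MDM4. When it accumulates after DNA damage or other stress, it switches on genes that stop the cell cycle, genes that set off apoptosis and genes that feed back on p53, mdm2 among them. Zebrafish embryos at this stage still have dividing neural progenitors, a tailbud that adds body segments, a differentiating epidermis and freshly formed muscle.

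Depth was 21021424 mapped reads in the morphant and 24939994 in the wild-type total library, as recovered from the values, and 11657 and 11551 genes reached 3 RPKM in them. For 11 of 12 cell types of the embryo at least 1 marker was at 3 RPKM or more in both libraries. Myeloid cells were the exception, and their markers summed to 9.03 RPKM in morphants and 3.77 RPKM in wild type. The part of these cells in any result was not tested. The feature named EIF3H (ENSDARG00000036116) stood at 5.92 RPKM in morphants and 6.24 RPKM in wild type, from 95 and 119 reads, a log2 ratio of -0.07 with a 95% counting interval of -0.48 to 0.32. A difference of its mRNA was not detectable at this depth, and the files do not say which eif3h copy it is, so this level does not measure the knockdown. None of the 12 listed eIF3 subunits above the floor was 2-fold different, and they had a median log2 ratio of -0.14 and a mean of -0.08.

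Among the 12154 genes, 174 (1.43%) rose by 2-fold or more in morphants and 82 (0.675%) fell by 2-fold or more. Each ratio is log2 of (morphant RPKM + 0.5) over (wild-type RPKM + 0.5), which shrinks the ratios of weakly expressed genes. The median gene was at -0.02, the central 50% of genes lay between -0.22 and 0.20, and 98% lay between -0.91 and 1.19. Above 0 were 5785 genes (47.6%). The raised genes had a median level of 10.99 RPKM in morphants and 2.70 RPKM in wild type, and the lowered genes 2.74 RPKM in morphants and 7.22 RPKM in wild type. Both libraries reached the floor for 82 of the raised and 40 of the lowered genes. The remaining genes entered through the library in which they are high, so the direction of each was fixed by the floor. This holds for every such gene named below, also where it is not repeated.

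**Figure D1:**
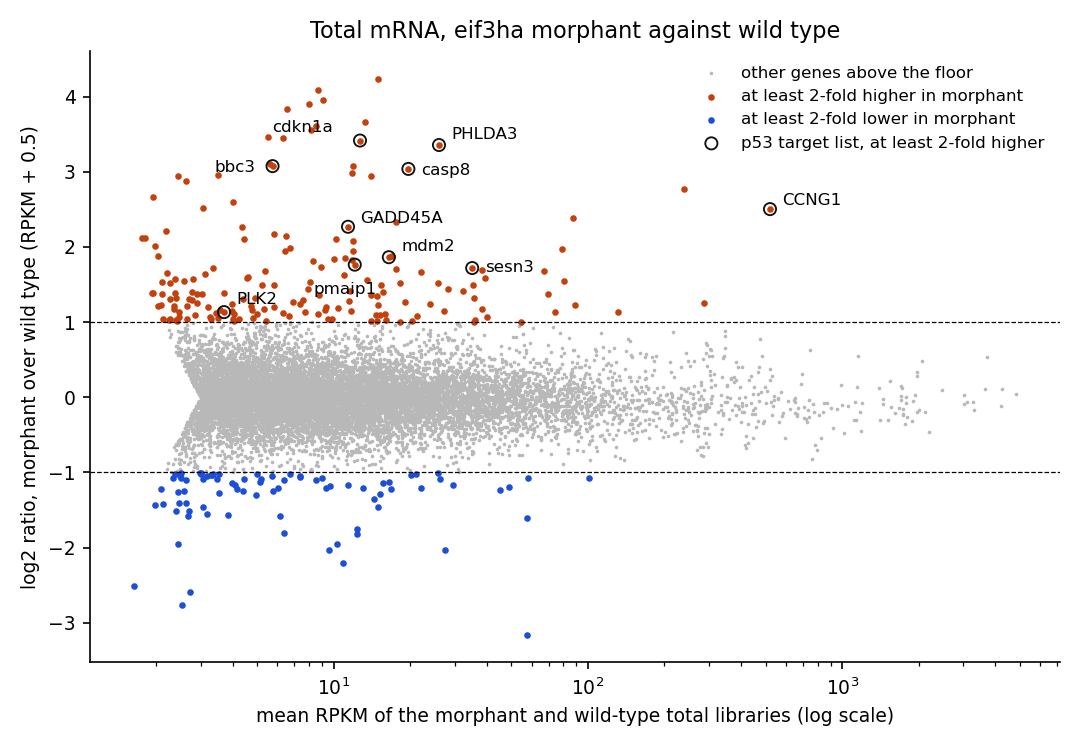
Each point is 1 gene above the floor, with the mean RPKM of the morphant and wild-type total libraries on a log scale on the horizontal axis and the log2 ratio of morphant over wild type on the vertical axis. Orange points are the 174 genes at least 2-fold higher, blue points the 82 at least 2-fold lower, and circles mark the 10 raised genes of the p53 target list, of which CCNG1 lies farthest to the right.

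The share of genes past 2-fold was similar from 3 to 100 RPKM and lowest among the most abundant genes. A mean below 3 RPKM needs 1 library under the floor and the other at it, which leaves out genes at equal levels. In that bin 7.65% of 510 genes were raised and 4.51% lowered, so its shares cannot be set against the others. From 3 to 100 RPKM the shares were 1.1% to 1.24% raised and 0.454% to 0.645% lowered in each of 5 bins, and above 100 RPKM they were 0.704% and 0.176% of 568 genes. Reads behind the values could be recovered for 167 raised and 81 lowered genes. The 95% counting interval of the read ratio left out 0 for 159 and 71 of these. Over all genes above the floor it left out 0 for 6547 of 11298, so this is a common outcome. Gene models under 150 bases, among them miRNA and snoRNA features, made up 14 raised and 17 lowered genes. Such features often lie inside other genes, and whether reads were assigned by strand is not given in the sources used here. Just inside the limits were CITED2, a transcriptional co-regulator, at 1.001 and an unnamed gene at -1.003, and just outside them were unnamed genes at 0.9991 and -0.9990.

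The raised genes held many known targets of p53. Morpholinos can activate p53 in zebrafish embryos apart from their intended target, and with no control morpholino such activation and the loss of eIF3h cannot be told apart. Of 50 listed targets in the files 35 were above the floor. At least 2-fold higher in morphants were 10 of the 35 (28.6%, against 1.43% of all genes), and none was 2-fold lower. Of the 10, cdkn1a, bbc3 and PLK2 (ENSDARG00000090752) passed the floor only in morphants, so their direction was fixed by the floor. The median of the list was only 0.18 and its mean 0.73, because 12 members lay below 0 and others near it; with a floor of 12 RPKM the median was 0.77 and with no floor 0.11. The summed level of all 50 was 1628 RPKM in morphants and 673 RPKM in wild type. Of the 33 above the floor with recovered reads, 17 had a counting interval above 0 and 6 one below 0. Over all 11298 genes above the floor with recovered reads, 3121 had one above 0 and 3426 one below 0.

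The regulators mdm2 and MDM4 moved in opposite directions. The ubiquitin ligase gene mdm2 (ENSDARG00000033443), whose product targets p53 for degradation and which p53 induces, had 26.1 RPKM in morphants and 6.82 RPKM in wild type, a log2 ratio of 1.86 on 4717 and 1460 reads. MDM4 (ENSDARG00000057513), which binds p53 and blocks its activity, was lower, at 10.2 RPKM in morphants and 22.9 RPKM in wild type. Its log2 ratio was -1.13 and the counting interval of its reads -1.29 to -1.04. MDM4 was not on the list and was singled out after its values were seen. The phosphatase genes PPM1D, whose product reverses p53 activation in mammals, did not join mdm2: ENSDARG00000009273 was at 26.2 RPKM in morphants and 34.8 RPKM in wild type, and ENSDARG00000021380 at 5.32 RPKM in morphants and 5.97 RPKM in wild type.

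The listed target with the highest ratio is a gene that halts the cell cycle. The inhibitor of cyclin-dependent kinases cdkn1a (ENSDARG00000076554), also called p21, had 23.6 RPKM in morphants and 1.76 RPKM in wild type, a 10.7-fold difference on the scale used here. Cyclin G1, CCNG1 (ENSDARG00000076667), a p53 target that acts on mdm2 through a phosphatase, was the most abundant raised gene with a symbol, at 884 RPKM in morphants and 156 RPKM in wild type (log2 ratio 2.5). GADD45A (ENSDARG00000043581), a growth arrest gene of the DNA damage response, had 19.2 RPKM in morphants and 3.58 RPKM in wild type (2.27). All were higher in the morphant library, cdkn1a from a wild-type level under the floor. RBL2 (ENSDARG00000045636), a pocket protein related to the retinoblastoma protein that represses genes of DNA replication, had 21.6 RPKM in morphants and 2.13 RPKM in wild type (3.07). Its relative RBL1 was at 12.1 RPKM in morphants and 16.5 RPKM in wild type (-0.43). Of 15 cell cycle inhibitors and pocket proteins above the floor, RBL2 and GADD45B (ENSDARG00000013576, 1.07) were raised (13.3%, against 1.43% of all genes). Both passed the floor only in morphants, so their direction was fixed by the floor. None was 2-fold lower, and the median was 0.14, against 0.22 with a floor of 12 RPKM and a mean of 0.36. CDKN1B, another inhibitor of cyclin-dependent kinases, was at 0.72 and cdkn1ca at -0.30.

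Genes of stress signalling downstream of p53 included sestrins, which restrain the growth kinase mTORC1. The sestrin sesn3 (ENSDARG00000015822) had 54.0 RPKM in morphants and 16.1 RPKM in wild type (1.72), and SESN1 had 14.8 RPKM in morphants and 7.18 RPKM in wild type, just short of 2-fold at 0.99. PHLDA3 (ENSDARG00000037804), which blocks recruitment of the survival kinase Akt to the membrane, had 47.7 RPKM in morphants and 4.21 RPKM in wild type (3.36). The polo-like kinase PLK2 is present as more than 1 feature: ENSDARG00000090752 had 5.27 RPKM in morphants and 2.13 RPKM in wild type (1.13), while ENSDARG00000019130 had 7.50 RPKM in morphants and 7.17 RPKM in wild type (0.06). The copies resemble each other, and reads may be divided between them wrongly.

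**Figure D2:**
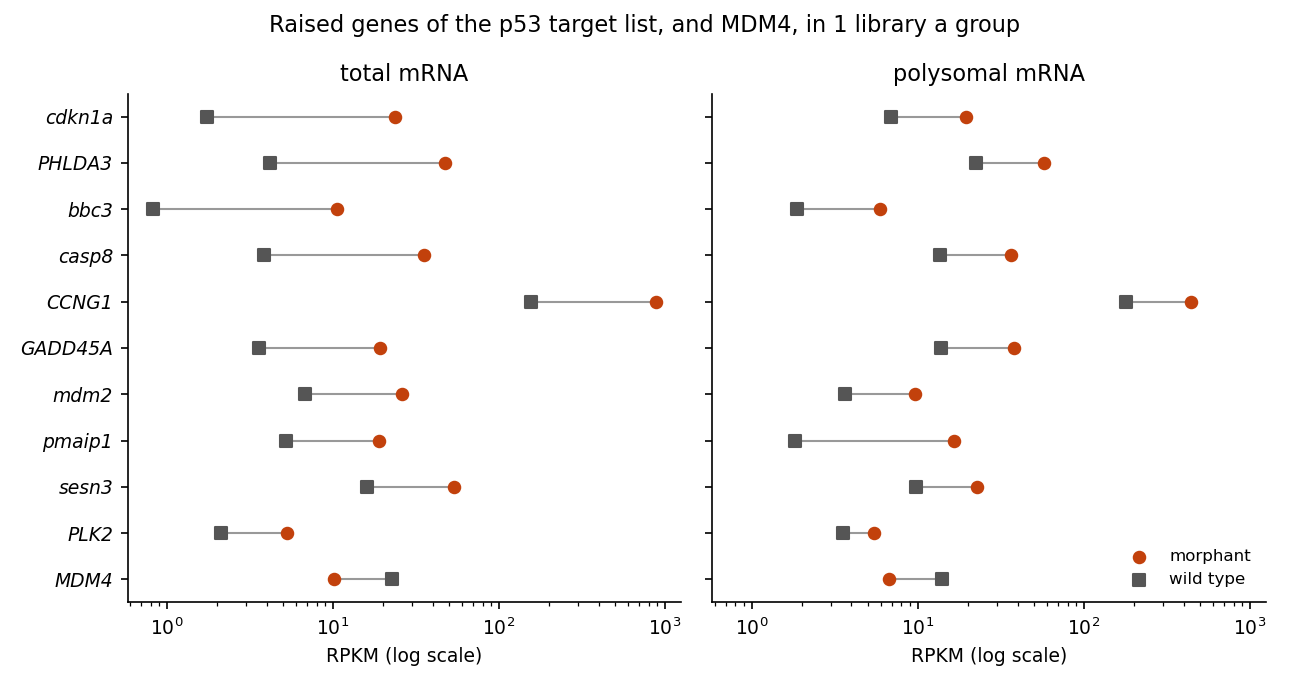
RPKM on a log scale (horizontal axis) of the 10 raised genes of the p53 target list and of MDM4 in total mRNA (left panel) and polysomal mRNA (right panel), with orange circles for the morphant library and grey squares for the wild-type library. All 10 targets lie to the right in morphants in both panels and MDM4 to the left, and the gaps in total mRNA exceed those in polysomal mRNA for every target but pmaip1.

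Among listed p53 targets that promote apoptosis, bbc3, pmaip1 and casp8 passed 2-fold, while BAX, PERP and EI24 did not. The BH3-only gene bbc3 (ENSDARG00000069282), known as Puma, had 10.7 RPKM in morphants and 0.825 RPKM in wild type (3.07), on 1045 and 95 reads. A second BH3-only gene, pmaip1 (ENSDARG00000089307), known as Noxa, had 19.0 RPKM in morphants and 5.23 RPKM in wild type (1.76), on only 54 and 17 reads. The initiator caspase casp8 (ENSDARG00000058325), which acts below death receptors, had 35.4 RPKM in morphants and 3.88 RPKM in wild type (3.04). Each of these was higher in morphants by a factor of 3 or more, bbc3 from a wild-type level under the floor. A gene listed as si:dkey-204l11.1 (ENSDARG00000079403), to which RefSeq gives the synonym tnfrsf27, a name of the tumour necrosis factor receptor family, was higher still, with 25.1 RPKM in morphants and 1.51 RPKM in wild type (3.67). The pore-forming BAX had 41.3 RPKM in morphants and 21.2 RPKM in wild type (0.95), under the 2-fold limit. Another 23 genes of the apoptosis machinery passed the floor with no 2-fold difference in either direction, and their median was 0.01. The farthest were bada at 0.69, CASP6, an effector caspase, at 0.68 and bida at -0.33, and the anti-apoptotic mcl1a and mcl1b were at -0.30 and -0.25.

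Many listed targets stayed near their wild-type level. BTG2, an antiproliferative gene, had 87.6 RPKM in morphants and 101 RPKM in wild type (-0.21), and RPRM, a gene of G2 arrest, was at -0.35. The ubiquitin ligase genes TRIM8 were at -0.09 (ENSDARG00000090512) and -0.29 (ENSDARG00000060729). XPC, a sensor of damaged bases, was the lowest of the 35 at -0.66, with 7.33 RPKM in morphants and 11.9 RPKM in wild type. EI24 (0.41), PERP (0.34) and RRM2B (0.34), the ribonucleotide reductase subunit that p53 induces, were above 0 without reaching 2-fold.

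Genes of DNA damage sensing and repair were not raised as a list. Of 25 above the floor none was 2-fold different, 22 (88.0%, against 52.4% of all genes) were below 0 and the median was -0.21. PARP1, which marks DNA breaks with poly(ADP-ribose), had 63.2 RPKM in morphants and 85.3 RPKM in wild type (-0.43), and LIG1, the replicative DNA ligase, was at -0.35. Among the raised genes outside that list were several with a role at DNA breaks, singled out after their values were seen. PARP3 (ENSDARG00000003961) had 16.8 RPKM in morphants and 3.54 RPKM in wild type (2.10). EXO5 (ENSDARG00000042727), a DNA exonuclease, had 9.84 RPKM in morphants and 1.79 RPKM in wild type (2.18), and rnf169 (ENSDARG00000042825), a reader of ubiquitin marks at breaks, had 18.7 RPKM in morphants and 4.90 RPKM in wild type (1.83). EXO5 passed the floor only in morphants, so its direction was fixed by the floor. The histone variant gene h2ax (ENSDARG00000029406), whose product is phosphorylated at breaks, had 33.8 RPKM in morphants and 10.4 RPKM in wild type (1.66). It was the single raised gene among 9 histone genes above the floor (11.1%, against 1.43% of all genes).

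The highest ratios of all belonged to genes with provisional names. First came si:dkey-21o19.8 (ENSDARG00000094508), with 28.8 RPKM in morphants and 1.05 RPKM in wild type (4.24, on 507 and 21 reads). It was followed by si:dkey-90a24.1 (ENSDARG00000093639), with 16.9 RPKM in morphants and 0.521 RPKM in wild type (4.09), and si:ch211-92l17.1 (ENSDARG00000094584), with 17.5 RPKM in morphants and 0.658 RPKM in wild type (3.96), both of which RefSeq lists as long non-coding RNAs. Neither reached the floor in wild type. The 20 highest genes with a symbol ranged from 2.88 to 4.24, and besides those named so far they held ATXN1 (3.10), the ubiquitin ligases LNX1 (2.98) and RNF14 (2.94), the proton-gated channel ASIC1 (2.96), fkbp16 (2.95) and the AP-1 transcription factor FOS (2.88). ATXN1, LNX1, RNF14, ASIC1, fkbp16 and FOS passed the floor only in morphants as well. An unnamed gene, ENSDARG00000090186, was abundant and raised, at 418 RPKM in morphants and 60.8 RPKM in wild type (2.77).

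Few immune genes were above the floor. Of 74 listed interferon and antiviral genes 63 were below the floor, and 52 of these were under 1 RPKM in both libraries. Among the 11 above it, isg15 (ENSDARG00000086374), a ubiquitin-like protein induced by interferon, had 12.6 RPKM in morphants and 0.423 RPKM in wild type (3.83), on 125 and 4 reads. The antiviral exonuclease isg20 (ENSDARG00000079783) had 103 RPKM in morphants and 31.9 RPKM in wild type (1.67), and the class I histocompatibility light chain gene b2m had 4.43 RPKM in morphants and 1.16 RPKM in wild type (1.57). These 3 are 27.3% of the 11, against 1.43% of all genes, but isg15 and b2m passed the floor only in morphants, which fixed their direction. The other 8 were not 2-fold different and the median was -0.03. Other genes that interferon induces were nearly unread: mxa was at 0.224 RPKM in morphants and 0.204 RPKM in wild type, mxb at 0.0078 RPKM in morphants and 0.0132 RPKM in wild type, and IFIH1 at 0.0611 RPKM in morphants and 0.0368 RPKM in wild type.

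In the complement and coagulation list 3 of 22 genes above the floor (13.6%, against 1.43% of all genes) were raised and none lowered. Their median was 0.41, but it was 0.19 with no floor and 0.23 with a floor of 12 RPKM. Complement component c4b (ENSDARG00000038424) had 15.4 RPKM in morphants and 0.855 RPKM in wild type (3.55), on 3763 and 247 reads. Complement factor D, cfd (ENSDARG00000039579), a protease of the alternative pathway, had 51.3 RPKM in morphants and 20.2 RPKM in wild type (1.33), and the terminal component c7b had 4.90 RPKM in morphants and 1.98 RPKM in wild type (1.12). Of these, c4b and c7b passed the floor only in morphants, so their direction was fixed by the floor. Complement component c3a.1 had 27.0 RPKM in morphants and 28.3 RPKM in wild type (-0.07), and the fibrinogen chain fga was at -0.07. Myeloid genes are a second source of immune transcripts. Of 36 listed, 27 were below the floor. All 9 above it were above 0 (100%, against 47.6% of all genes), with a median of 0.56, and 2 were raised (22.2%, against 1.43%). Lysozyme, lyz (ENSDARG00000057789), had 6.47 RPKM in morphants and 2.33 RPKM in wild type (1.30), on 81 and 34 reads. As lyz passed the floor only in morphants, its direction was fixed by the floor. On polysomes lyz was lower in morphants, at 11.8 RPKM and 20.6 RPKM in wild type (-0.78). Of 7 listed members above both floors 5 were above 0 there. The 36 listed genes summed to 890 RPKM in morphants and 708 RPKM in wild type in total mRNA. The myeloid markers of the tissue check summed to only 9.03 RPKM and 3.77 RPKM. The part of myeloid cells in the complement values was not tested.

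The integrated stress response starts when the initiation factor eIF2 is phosphorylated, and its genes went in both directions. Of 29 above the floor, 6 were raised (20.7%, against 1.43% of all genes) and 1 was lowered (3.45%, against 0.675%), and the median was 0.16 and the mean 0.30. The raised members were mostly its transcription factors. Of these, atf5a and ATF3 passed the floor only in morphants, so their direction was fixed by the floor. atf4b (ENSDARG00000038141), the zebrafish copy of its central factor listed here, had 181 RPKM in morphants and 81.6 RPKM in wild type (1.14). atf5a had 7.10 RPKM in morphants and 2.02 RPKM in wild type (1.59), atf5b was at 1.11 and ATF3 at 1.07, and DDIT3, also called CHOP, was at 0.77 with 10.6 RPKM in morphants and 6.01 RPKM in wild type. The stress protein gene nupr1a (ENSDARG00000094300) had 120 RPKM in morphants and 40.8 RPKM in wild type (1.55), and CHAC1, which degrades glutathione, had 103 RPKM in morphants and 46.4 RPKM in wild type (1.13).

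Listed genes of amino acid synthesis lay on both sides of 0. PHGDH (ENSDARG00000001873), the first enzyme of serine synthesis, had 26.8 RPKM in morphants and 63.7 RPKM in wild type (-1.23). PSAT1, the next enzyme, had 34.7 RPKM in morphants and 46.4 RPKM in wild type (-0.41), while PSPH, the last, was at 0.16. Asparagine synthetase, ASNS, was at -0.16. The pseudokinase gene TRIB3, another member of the list, was at -0.59. Chaperones of the endoplasmic reticulum were at a median of 0.01 over 27 genes. DNAJB9 (1.82 RPKM in morphants and 4.18 RPKM in wild type) was the single one past 2-fold, at -1.01 (3.7%, against 0.675% of all genes).

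Several genes of the circadian clock differed beyond 2-fold, in both directions. Of 17 above the floor 3 were raised (17.6%, against 1.43% of all genes) and 1 lowered (5.88%, against 0.675%), 13 were above 0 (76.5%, against 47.6%) and the median was 0.27. The repressor PER1 (ENSDARG00000012499) had 13.1 RPKM in morphants and 3.40 RPKM in wild type (1.81, on 1870 and 573 reads). ciarta (ENSDARG00000058094), a repressor of clock-driven transcription, had 21.4 RPKM in morphants and 8.12 RPKM in wild type (1.34), and NR1D2 (ENSDARG00000009594), the nuclear receptor Rev-erb beta, had 10.9 RPKM in morphants and 4.15 RPKM in wild type (1.30). These 3 were higher in morphants, as were, by less than 2-fold, the output factor tefa (0.74) and the cryptochrome CRY1 (0.73). cry3a (ENSDARG00000069074), another cryptochrome, had 13.0 RPKM in morphants and 27.2 RPKM in wild type (-1.04). The hour at which each pool was collected is not given in the sources used here, so the part of collection time was not tested.

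**Figure D3:**
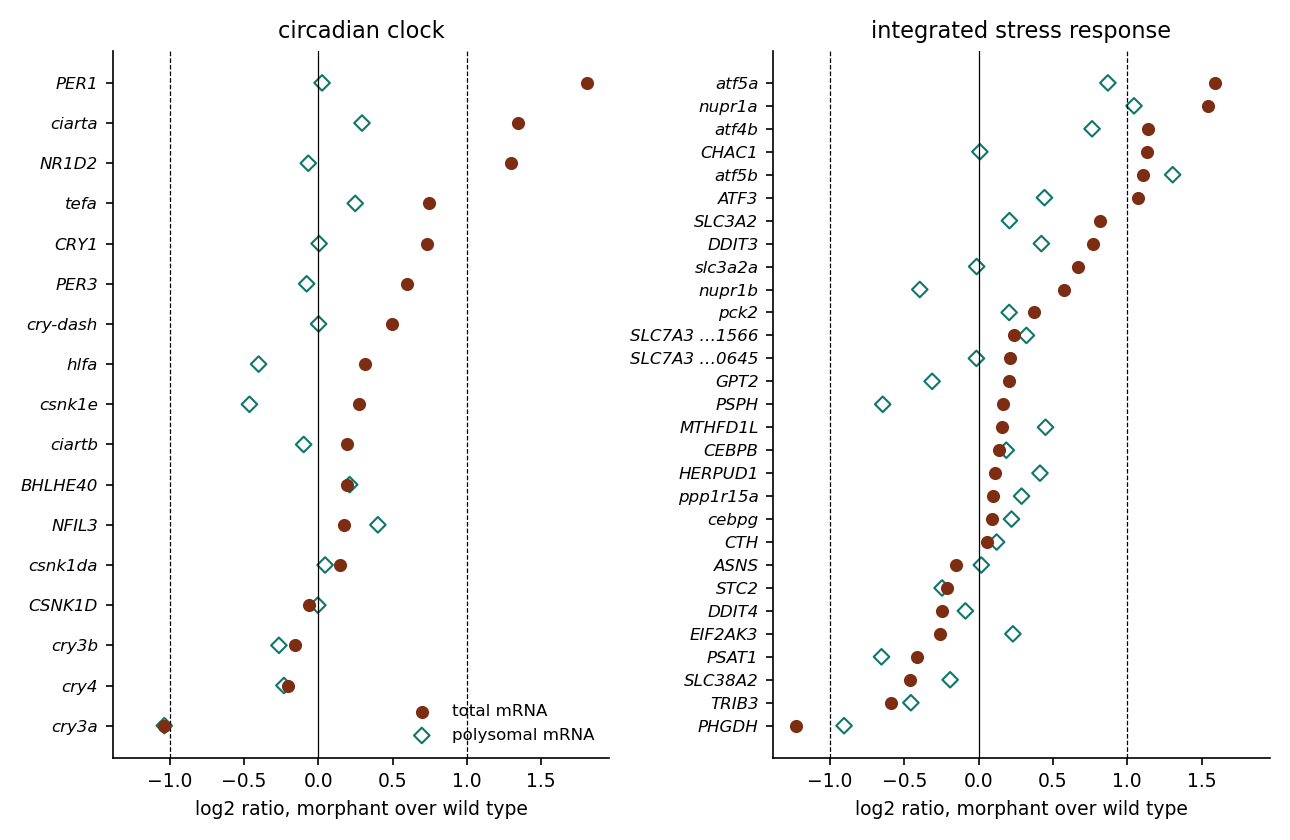
Log2 ratio of morphant over wild type (horizontal axis) for each gene above the floor in the circadian clock list (left) and the integrated stress response list (right), in total mRNA (filled circles) and polysomal mRNA (open diamonds), with dashed lines at 2-fold and the end of the identifier where a symbol is shared. PER1, ciarta and NR1D2 lie beyond 2-fold in total mRNA and between -0.07 and 0.29 in polysomal mRNA, while cry3a lies at -1.04 in both.

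Immediate early genes, which respond within minutes to growth factors, injury or handling, were uneven. FOS (ENSDARG00000031683) had 4.99 RPKM in morphants and 0.247 RPKM in wild type, on 237 and 13 reads, and FOSL1, its relative, had 3.26 RPKM in morphants and 0.369 RPKM in wild type (2.12). Both were under 1 RPKM in the wild-type total library and passed the floor only in morphants, so their direction was fixed by the floor. On polysomes FOS had 18.2 RPKM in morphants and 9.98 RPKM in wild type (0.83), a difference under 2-fold. Their partner JUN was at -0.18, with 27.6 RPKM in morphants and 31.3 RPKM in wild type, and MYC at 0.36. Over 27 genes of that list and of NF-kB signalling above the floor the median was -0.04 and the mean 0.23, 3 were raised (11.1%, against 1.43% of all genes) and none lowered.

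Secreted and metabolic genes among the raised ones were singled out after their values were seen. MMP2 (ENSDARG00000017676), a matrix protease, had 126 RPKM in morphants and 31.9 RPKM in wild type (1.97). Follistatin, FST (ENSDARG00000052846), which traps activin, had 58.8 RPKM in morphants and 17.8 RPKM in wild type (1.70), and the growth factor igf2a had 27.2 RPKM in morphants and 9.19 RPKM in wild type (1.51). CYP11A1 (ENSDARG00000002347), which makes the first steroid from cholesterol, had 10.9 RPKM in morphants and 2.07 RPKM in wild type (2.15), and CYP17A1 (ENSDARG00000033566), which acts further down that route, had 12.2 RPKM in morphants and 3.87 RPKM in wild type (1.54). Of these 2 steroid genes, CYP11A1 passed the floor only in morphants, so its direction was fixed by the floor. STAR, which carries cholesterol to CYP11A1, was near absent, at 0.131 RPKM in morphants and 0.128 RPKM in wild type. Cholesterol synthesis genes were not among the raised ones: of 10 above the floor none was 2-fold different, 7 were below 0 (70.0%, against 52.4% of all genes), and the median was -0.23 but -0.02 with no floor, with the regulator srebf2 at 14.7 RPKM in morphants and 23.6 RPKM in wild type (-0.66). The forkhead transcription factor foxo3b had 16.9 RPKM in morphants and 5.15 RPKM in wild type (1.62).

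Most listed genes of cell division were lower in morphants by small amounts, and lists of embryonic patterning differed among themselves. In bulk RNA, fewer cells of a type and less RNA per cell cannot be told apart. Of 65 genes of the cell cycle and DNA replication above the floor, 60 (92.3%, against 52.4% of all genes) were below 0 with a median of -0.32, and none was 2-fold different. The replication helicase genes MCM3 and MCM5 were the lowest, MCM5 (ENSDARG00000019507) with 96.8 RPKM in morphants and 170 RPKM in wild type (-0.81) and MCM3 at -0.91. RRM1, the large subunit of ribonucleotide reductase, had 62.4 RPKM in morphants and 104 RPKM in wild type (-0.73), and the spindle checkpoint gene bub1ba was at -0.70. Among the 5 members above 0 were RRM2B, listed with the p53 targets too, and TYMS, thymidylate synthase, at 0.21. Of 58 members with recovered reads, 47 had a counting interval below 0 and 2 one above 0, against 3426 and 3121 of 11298 over all genes.

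Neural progenitor and Notch pathway genes had the lowest median among the lists plotted, -0.34 over 70 genes above the floor, with 54 below 0 (77.1%, against 52.4% of all genes) and none 2-fold different. The Notch target her8a had 9.76 RPKM in morphants and 18.5 RPKM in wild type (-0.89). Nestin, nes, the intermediate filament of progenitors, had 21.4 RPKM in morphants and 39.3 RPKM in wild type (-0.86), the Notch ligand DLL1 was at -0.81 and the progenitor factor sox19b at -0.78. On the other side were FABP7, a lipid carrier of radial glia, at 0.59, and the Notch ligand jag2a at 0.46. Differentiating neurons had a median of -0.29 over 48 genes, 37 of them below 0 (77.1%, against 52.4%), and the median was -0.10 with no floor. Their lowest member was cntn2 (ENSDARG00000000472), an axonal adhesion molecule, with 1.69 RPKM in morphants and 5.99 RPKM in wild type (-1.57), and the neurogenic factors NEUROD4 and ONECUT1 were at -0.92 and -0.96. SCG3, a protein of secretory granules, was higher in morphants at 0.67.

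Eye and forebrain genes included some of the lowered transcription factors. Of 28 eye field, retina and optic cup genes above the floor, 20 were below 0 (71.4%, against 52.4%) and the median was -0.30. At least 2-fold lower were 2 of them (7.14%, against 0.675% of all genes), and none was raised. rx2 (ENSDARG00000040321), of the eye field, had 0.931 RPKM in morphants and 3.34 RPKM in wild type (-1.42), and VAX2, of the ventral retina, had 1.43 RPKM in morphants and 3.58 RPKM in wild type (-1.08). Both were weakly expressed, rx2 on 67 and 288 reads. The hypothalamic factor OTP (ENSDARG00000058379) had 1.32 RPKM in morphants and 3.81 RPKM in wild type (-1.24), and NKX2-4 (ENSDARG00000075107), also expressed in the hypothalamus, had 2.66 RPKM in morphants and 6.24 RPKM in wild type (-1.09), both chosen after their values were seen. Like OTP and NKX2-4, rx2 and VAX2 passed the floor only in wild type, so the direction of each was fixed by the floor. The retinal pigment gene RPE65 (0.33) and rbp4l (0.39) were above 0. At the midbrain-hindbrain boundary EN2 was at -0.83, with 9.41 RPKM in morphants and 17.1 RPKM in wild type, while WNT1 was at 0.47 and FGF8 at 0.23, and the median over 27 genes was 0.05 with 14 above 0. Targets of Wnt, hedgehog, Bmp and retinoic acid signalling had a median of 0.03 over 42 genes, 24 of them above 0 (57.1%, against 47.6% of all genes) and none 2-fold different.

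Genes of the tailbud and presomitic mesoderm had a median of -0.32 over 31 genes, 24 of them below 0 (77.4%, against 52.4% of all genes) and none 2-fold different. msgn1, a driver of presomitic mesoderm, had 12.3 RPKM in morphants and 22.8 RPKM in wild type (-0.87), the T-box gene tbx6 had 9.39 RPKM in morphants and 15.6 RPKM in wild type (-0.70), and MEOX1, of the somites, was at -0.83. BMP4 (0.65) and CYP26A1 (0.54), which degrades retinoic acid in the tail tip, lay above 0. The somite factor TCF15 (ENSDARG00000067544) passed 2-fold, with 7.91 RPKM in morphants and 21.0 RPKM in wild type (-1.35). Posterior hox genes had a median of -0.29 over 14 genes with 12 below 0 (85.7%), and anterior and central hox genes one of -0.14 over 20 with 16 below 0 (80.0%). HOXC12 was the lowest of the posterior group at -0.63, with 14.4 RPKM in morphants and 22.6 RPKM in wild type.

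**Figure D4:**
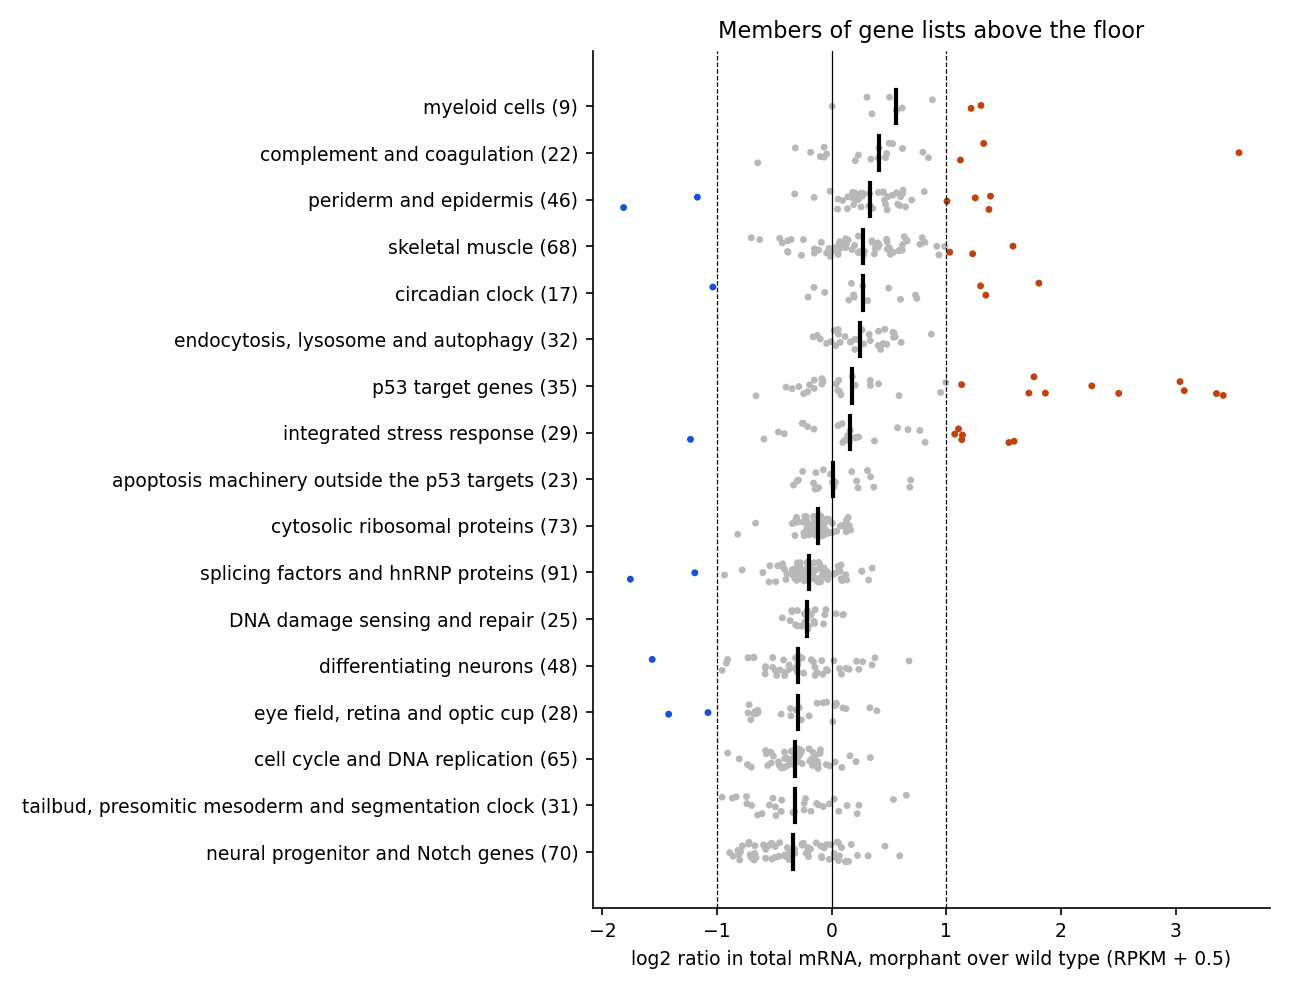
Log2 ratio of morphant over wild type in total mRNA (horizontal axis) for each member above the floor of 17 gene lists, ordered by median, with the number of members in brackets. Black bars are medians, dashed lines mark 2-fold, orange points are at least 2-fold higher and blue points at least 2-fold lower; the p53 target list spreads from -0.66 to 3.41 around a median of 0.18, while cell cycle and progenitor genes lie in a narrow cloud around -0.32 and -0.34.

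Single genes with large decreases were few. dync1i2a (ENSDARG00000078386), an intermediate chain of the motor dynein, had 10.4 RPKM in morphants and 44.2 RPKM in wild type (-2.03, on 525 and 2644 reads). g0s2 (ENSDARG00000078859), an inhibitor of the lipase that breaks down stored fat, had 3.92 RPKM in morphants and 16.7 RPKM in wild type (-1.96). The lowest gene of all was unnamed, ENSDARG00000077242, with 11.2 RPKM in morphants and 104 RPKM in wild type (-3.16). The long non-coding RNA si:dkey-238c7.12 (ENSDARG00000095556) had 28.2 RPKM in morphants and 87.3 RPKM in wild type (-1.61). Below 1 RPKM in the morphant total library was si:ch211-209l18.4, with 0.273 RPKM there and 4.77 RPKM in wild type (-2.77). So was si:ch211-121a2.2, with 0.417 RPKM in morphants and 5.03 RPKM in wild type (-2.59). On polysomes si:ch211-121a2.2 was not lower, with 7.67 RPKM in morphants and 6.51 RPKM in wild type (0.22). There si:ch211-209l18.4 was nearly unread, at 0.0948 RPKM in morphants and 0.0331 RPKM in wild type. The extracellular matrix gene SPON1, expressed in the floor plate, had 2.83 RPKM in morphants and 9.48 RPKM in wild type (-1.58), the Wnt antagonist SFRP1 was at -1.14 and the fatty acid elongase ELOVL6 at -1.25. MIR92A1 also stands among the 20 lowest, on 1 and 8 reads, and its counting interval of -8.22 to 0.15 includes 0.

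Regulators of splicing were on the lower side. Of 91 splicing factors and hnRNP proteins above the floor 77 (84.6%, against 52.4% of all genes) were below 0, the median was -0.20 and 2 were lowered (2.2%, against 0.675%). rsrp1 (ENSDARG00000030440), an arginine- and serine-rich protein, had 5.36 RPKM in morphants and 19.3 RPKM in wild type (-1.76), and clk4a (ENSDARG00000089372), a kinase that phosphorylates SR splicing factors, had 29.4 RPKM in morphants and 68.0 RPKM in wild type (-1.19). SRSF1, the SR protein that such kinases act on, had 10.4 RPKM in morphants and 20.3 RPKM in wild type (-0.94). SRSF5, of the same family, was at 0.35.

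Among 32 heat shock proteins above the floor 3 were lowered (9.38%, against 0.675% of all genes) and none raised, with a median of -0.09. The feature HSP90AA1 (ENSDARG00000024746) had 7.73 RPKM in morphants and 22.1 RPKM in wild type (-1.46). A related feature, hsp90aa1.1, had 277 RPKM in morphants and 355 RPKM in wild type (-0.36), and since the copies resemble each other reads may be divided between them wrongly. The co-chaperones dnajb1b, with 5.43 RPKM in morphants and 13.2 RPKM in wild type (-1.21), and dnaja1, with 13.7 RPKM in morphants and 28.4 RPKM in wild type (-1.02), were lower too. The small heat shock gene HSPB1 was at 0.40.

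Differentiated outer tissues were on the higher side. Of 46 periderm and epidermis genes above the floor 41 (89.1%, against 47.6% of all genes) were above 0 with a median of 0.33. Past 2-fold the list went both ways, with 4 raised (8.7%, against 1.43%) and 2 lowered (4.35%, against 0.675%). The raised ones were and1, krt97, icn and ANXA2 (1.01). The fin fold structural gene and1 had 5.59 RPKM in morphants and 1.83 RPKM in wild type (1.38). It passed the floor only in morphants, so its direction was fixed by the floor. The keratin krt97 had 101 RPKM in morphants and 38.6 RPKM in wild type (1.37). For icn the levels were 402 RPKM in morphants and 169 RPKM in wild type (1.25). The lowered ones were keratins as well, krt1-19d (ENSDARG00000023082) with 5.21 RPKM in morphants and 19.6 RPKM in wild type (-1.82) and krt99 with 17.9 RPKM in morphants and 40.9 RPKM in wild type (-1.17). Keratin genes resemble each other, which makes the split of reads between them uncertain. The basal keratin krt5 was at 554 RPKM in morphants and 560 RPKM in wild type (-0.01), and the epidermal markers fixed for the tissue check summed to 4962 RPKM in morphants and 3612 RPKM in wild type.

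Of 68 skeletal muscle genes above the floor 51 were above 0 (75%, against 47.6% of all genes) with a median of 0.27, and 3 were raised (4.41%, against 1.43%). They were the calcium buffer pvalb1 (ENSDARG00000037789), with 59.4 RPKM in morphants and 19.5 RPKM in wild type (1.58), the fast troponin TNNI2, with 125 RPKM in morphants and 53.2 RPKM in wild type (1.23), and the acetylcholine receptor subunit CHRNG (1.03). The lowest were pvalb4 at -0.70 and the myogenic factor MYF5 at -0.63. The hatching enzyme he1.2 had 37.5 RPKM in morphants and 16.6 RPKM in wild type (1.15), and he1.1 had 72.4 RPKM in morphants and 36.5 RPKM in wild type (0.98), whereas he1.3 had 20.1 RPKM in morphants and 32 RPKM in wild type (-0.66). Lysosome, endocytosis and autophagy genes had 27 of 32 members above 0 (84.4%, against 47.6%) and a median of 0.25, led by the protease ctsla at 279 RPKM in morphants and 153 RPKM in wild type (0.87).

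Housekeeping lists stayed close to the median of all genes. Mitochondrial ribosomal proteins were at -0.01 (61 genes), nuclear respiratory chain genes at 0.03 (81), ribosome biogenesis factors at -0.05 (59) and initiation and elongation factors outside eIF3 at -0.01 (56), and none of their members was 2-fold different. Cytosolic ribosomal proteins were at -0.12 over 73 genes with 60 below 0 (82.2%, against 52.4%), the lowest being RPL3 with 552 RPKM in morphants and 976 RPKM in wild type (-0.82). Erythroid genes (0.08 over 21), endothelial genes (-0.04 over 22, -0.23 with a floor of 12 RPKM), notochord genes (-0.07 over 31), heart muscle genes (0.11 over 11) and lens genes (-0.06 over 13) had no member past 2-fold.

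The same genes can be read in the polysomal pair, which shares no library with the total pair. Of 8261 genes above 3 RPKM in a polysomal library, 340 (4.12%) were lower in morphants by 2-fold or more and 145 (1.76%) were higher by as much. Of the 174 raised genes 120 were also above 3 RPKM in a polysomal library, and 49 of the 120 (40.8%, against 1.75% of the 7825 genes above both floors) were 2-fold higher in morphant polysomes too. Those 49 are 35.8% of the 137 genes 2-fold higher there. Above 0 were 104 of the 120 (86.7%, against 50.1%), and their median was 0.78. Of the 82 lowered genes 32 could be read, and 13 (40.6%, against 3.03%) were 2-fold lower in morphant polysomes, which is 5.49% of the 237 genes 2-fold lower there. Below 0 were 27 of the 32 (84.4%, against 49.9%), with a median of -0.89. The long list of genes lower in morphant polysomes was thus mostly made of genes that were not 2-fold lower in total mRNA. Genes that passed the polysomal floor only through the library in which they are high had their polysomal direction fixed by that floor. Among the 49 these included bbc3, pmaip1, RBL2, c4b and EXO5, and among the 13 g0s2. How many of the 120 and of the 32 this covers was not counted. List medians on polysomes, over members above both floors, did not all have the sign of the total medians given above. The sign differed for tailbud (0.14, 13 of 18 above 0), posterior hox (0.11, 9 of 14) and eye genes (0.04, 12 of 19). Skeletal muscle was at -0.59, with 42 of 55 below 0. The sign was the same for cell cycle (-0.14, 43 of 63 below 0), neural progenitor (-0.13, 39 of 60) and neuron genes (-0.70, 25 of 27). Of these lists only posterior hox had the same number of members in both medians. For the rest the total median covers more genes, so a change of genes and a change of fraction cannot be told apart. Other lists went either way, and the differences were not tested.

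For the p53 targets the polysomal values repeated the direction of the total values. cdkn1a had 19.6 RPKM in morphant polysomes and 6.88 RPKM in wild-type polysomes (1.45), and CCNG1 had 442 RPKM in morphant and 181 RPKM in wild-type polysomes (1.29). Of the 10 raised in total mRNA 9 were 2-fold higher here, PLK2 (0.56) being the exception. Of the 9, bbc3 and pmaip1 passed the polysomal floor only in morphants, so their direction here was fixed by that floor. MDM4 had 6.75 RPKM in morphant polysomes and 14.0 RPKM in wild-type polysomes, a difference of just under 2-fold, and dync1i2a was at -1.58. The raised clock genes were not 2-fold different on polysomes, and the difference between fractions was not tested. PER1 had 3.81 RPKM in morphant and 3.73 RPKM in wild-type polysomes (0.03), and ciarta and NR1D2 were at 0.29 and -0.07. CYP11A1 was nearly unread on polysomes, with 0.143 RPKM in morphants and 0.0760 RPKM in wild type, and CYP17A1 was at 0.03.

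**Figure D5:**
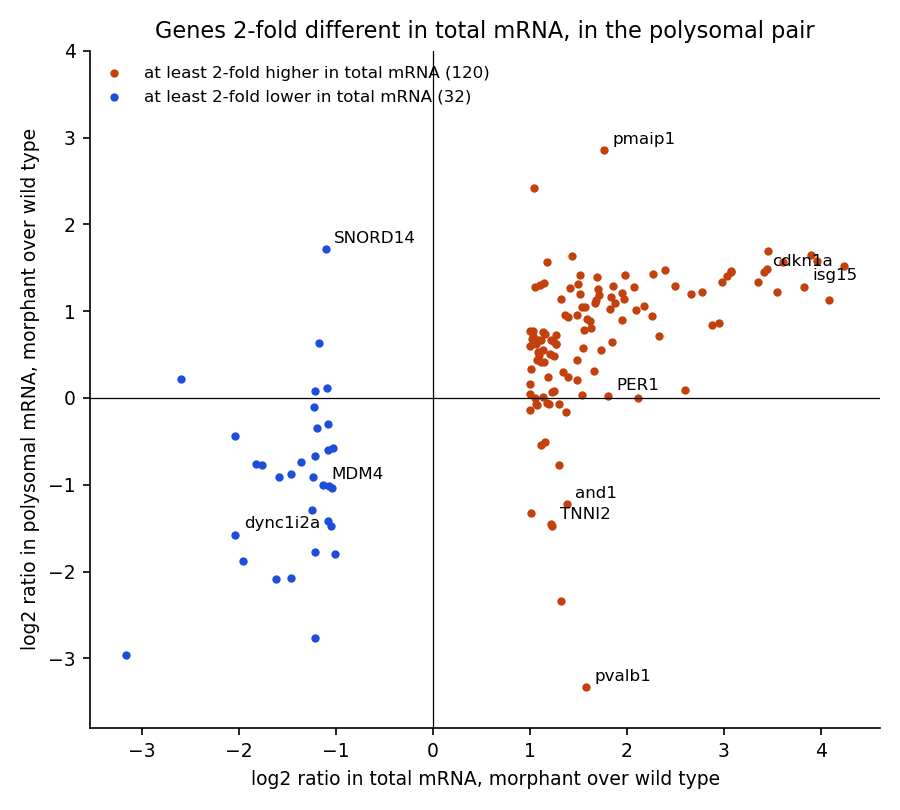
Log2 ratio of morphant over wild type in total mRNA (horizontal axis) and in polysomal mRNA (vertical axis) for the 120 raised and 32 lowered genes that were also above 3 RPKM in a polysomal library. Most raised genes lie above 0 on polysomes (104 of 120) and most lowered genes below it (27 of 32), with pvalb1 and SNORD14 among those on the opposite side.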

How the data were processed

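The deposited files hold RPKM per Ensembl gene, 1 library in each of 4 groups, computed by the authors. Per the submitters' processing notes the genome build was Zv9. The aligner is not given in the sources used here, nor are the counting tool and annotation. No coordinates were used. Symbols were joined by identifier for 20499 of 32313 genes, and names in capitals are orthologue-type names. Values moved in steps of whole reads plus 1, from which the reads of 11298 (93.0%) of the 12154 genes and the depths of the libraries were recovered, a value counting as whole within 0.004 of a step. Where a gene's steps in all 4 libraries share a divisor its reads come out too low and the interval too wide. The 95% intervals are exact (Clopper-Pearson) for the ratio of reads, without the added 0.5 RPKM, and cover counting error only.

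Ratios used RPKM + 0.5, a floor of 3 RPKM in either library and 2-fold. The text names the eif3h feature and genes among the 20 highest and 20 lowest with a symbol. It also names list members that were 2-fold different or among the farthest from 0, besides those stated as chosen later. Some named genes, among them krt5, c3a.1, JUN and SFRP1, fit none of these rules. The gene lists (46) and the genes compared were chosen with earlier results of these data known, and some genes are not reported here. Scaling, pseudocount, floor and fold were varied. Recovery and calling were tested on simulated data. Tools were SciPy 1.17.1, pandas 2.3.3, NumPy 2.4.6 and Matplotlib 3.10.9 under Python 3.11.15.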

Additional observations from a re-analysis of the deposited data

Results flagged for a closer look

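Of the genes 2-fold different in total mRNA, 7 were 2-fold different in the opposite direction in polysomal mRNA, and the difference between the fractions was not tested. They were 6 of 120 raised genes above both floors (5.0%, against 3.03% of all 7825 lower in morphant polysomes) and 1 of 32 lowered genes (3.12%, against 1.75% higher). These shares lie near those of all genes. The muscle genes pvalb1 (1.58 in total, -3.33 in polysomal mRNA) and TNNI2 (1.23 and -1.47) and the fin fold gene and1 (1.38 and -1.22) were higher in morphant total mRNA and lower in morphant polysomes. For pvalb1 the wild-type polysomal library stood apart, at 295 RPKM in morphant and 2972 RPKM in wild-type polysomes. The miRNA features mir19c (1.33 and -2.34), mir457b (1.22 and -1.45) and mir130b (1.01 and -1.33) went the same way, and SNORD14 went the opposite way (-1.10 and 1.72). These last 4 have gene models under 150 bases and at most 8 reads in a total library, and their counting intervals in total mRNA include 0.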

How the results depend on the processing

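The number of genes higher in morphants was 174, and it was 319 with no floor, 83 with a floor of 12 RPKM, 678 at 1.5-fold and 39 at 4-fold. The number lower was 82, and under the same alternatives 149, 29, 519 and 7. With a floor of 12 RPKM, 28 genes in place of 49 were higher in both fractions. Under 3 other scalings, a pseudocount of 1 RPKM, the counting interval and, added after seeing the data, without models under 150 bases, 143 to 186 genes were higher and 57 to 82 lower. The scalings put the median of all genes between -0.02 and 0.01. Among the genes recomputed, no ratio of 2-fold or more changed sign. Not every gene named above was recomputed, and ratios near 0 can change sign with the scaling. Of the list medians recomputed under all alternatives, a mean in place of the median among them, 17 changed sign. They belong to 8 lists whose median lay within 0.07 of 0. Among them were the interferon genes (0.06 with no floor) and the midbrain-hindbrain boundary (-0.07 with a floor of 12 RPKM). The notochord (0.02 with no floor) and the apoptosis machinery (-0.06 with a floor of 12 RPKM) were others. Of 318 recomputed list medians 13 moved by more than the members' median counting error, among them the p53 targets (0.77 with a floor of 12 RPKM, 0.73 as a mean, against 0.18) and the interferon genes (0.56 as a mean, against -0.03). Of 884 recomputed gene ratios 9 moved, all with a pseudocount of 1 RPKM, cdkn1a to 3.16 and bbc3 to 2.68 among them. No paired analysis was possible because each group has 1 library, and for the same reason no library could be left out.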

Other observations

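The 20 highest genes with a symbol can be set against each other in all 4 libraries. Their log2 ratio of morphant over wild type ran from 2.88 to 4.24 in total mRNA and from 0.83 to 1.65 in polysomal mRNA, where 16 of the 20 passed 2-fold. Polysomal over total mRNA was above 0 for 6 of the 20 in morphants and for 18 of the 20 in wild type, and at least 2-fold for 2 in morphants and 13 in wild type. Over the 7825 genes above both floors it was above 0 for 3108 in morphants and 3295 in wild type, and at least 2-fold for 719 and 1036. Of the 20, si:dkey-204l11.1, ATXN1, ASIC1 and RNF14 were under 3 RPKM in both polysomal libraries. For the 9 raised p53 targets other than pmaip1 the ratio of morphant over wild type was 1.13 to 3.41 in total and 0.56 to 1.45 in polysomal mRNA. Both sets of genes were chosen by their total values, so these are descriptions without a test. Total values are also the denominators of polysomal over total mRNA. Choosing genes with a high total ratio can thus by itself lower polysomal over total mRNA in morphants and raise it in wild type. How far it did so here was not tested.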
